A study of Mus musculus with 12 samples.

Results

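Lactate export and pH control were followed through 8 genes picked by name: Car9 and Car12, which encode membrane carbonic anhydrases, Slc16a3 and Slc16a1, which encode the monocarboxylate transporters MCT4 and MCT1, Bsg, which encodes their partner basigin, Ldha and Ldhb, which encode the subunits of lactate dehydrogenase, and Slc4a7, which encodes a sodium bicarbonate cotransporter. Of 19938 genes with a named probeset on the arrays, 7 were members of this list, and all 7 were among the 16573 genes tested. No named probeset carried Slc4a7, and it was not analysed here. Where a gene had several probesets, the probeset with the highest mean over the 12 arrays stood for it. This choice arose for Ldhb alone, which had 2 probesets.

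The RNA came from 12 subcutaneous tumors, with 4 tumors per group. The groups are named R, VdR and VR, and all were grafts of J2A, a myofibroblast line from C57BL/6 mice lacking p16, p19 and Vnn1, so the controls share these deletions. R cells carried a retroviral vector for GFP fused to human H-RasV12. VdR cells carried in addition a catalytically deficient Vnn1, and VR cells the intact Vnn1, each expressed from the cytomegalovirus promoter of the same vector. Vnn1 is a pantetheinase, an ectoenzyme that cleaves pantetheine into pantothenate and cysteamine. The hosts were nude mice, which lack mature T cells, and the labels give a harvest at 2 to 3 weeks that followed growth, while the methods name a single day, at 3 weeks, for these tumors. The age of the mice was not given in the sources used here. All tumors derive from 1 line, and nothing says that tumors of a group came from separate transductions, so p-values measure the spread between grafts. The methods describe RNA of whole tumors, while the extraction note in the labels speaks of sorted cells.

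Cells that run glycolysis at a high rate reduce pyruvate to lactate with lactate dehydrogenase and export lactate together with a proton through monocarboxylate transporters. Basigin carries MCT1 and MCT4 to the plasma membrane. MCT4 is known for lactate efflux from glycolytic cells and MCT1 for transport in either direction. Carbonic anhydrases at the cell surface hydrate carbon dioxide to bicarbonate and a proton, and with bicarbonate transporters they set the pH on both sides of the membrane. Car9, Slc16a3 and Ldha are textbook targets of hypoxia-inducible factor, which binds DNA at short elements with the core ACGTG or GCGTG.

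The 250 bases upstream of annotated start sites (RefSeq, mouse build GRCm38.p6) are shown for Car9, Slc16a3, Ldha and Slc16a1, on which the comparisons turn, and for Car12, the other membrane carbonic anhydrase. Capitals mark each ACGTG or GCGTG on either strand, so that CACGT and CACGC are the same letters read from the other strand and CACGTG counts on both. Car9 has its window at chr4:43506776-43507025, Slc16a3 at chr11:120948817-120949066, Ldha at chr7:46845554-46845803 for the first of its listed starts, Slc16a1 at chr3:104638414-104638663 and Car12 at chr9:66713436-66713685, all on the plus strand.
Car9: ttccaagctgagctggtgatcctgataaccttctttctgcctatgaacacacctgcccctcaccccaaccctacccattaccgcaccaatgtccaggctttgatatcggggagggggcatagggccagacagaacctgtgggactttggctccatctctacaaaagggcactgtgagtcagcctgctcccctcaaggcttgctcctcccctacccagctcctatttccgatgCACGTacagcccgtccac
Slc16a3: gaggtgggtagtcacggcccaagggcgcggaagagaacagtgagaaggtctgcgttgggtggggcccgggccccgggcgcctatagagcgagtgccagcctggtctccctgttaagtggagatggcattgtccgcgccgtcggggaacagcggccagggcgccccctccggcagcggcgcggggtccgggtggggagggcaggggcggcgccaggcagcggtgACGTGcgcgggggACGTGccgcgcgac
Ldha: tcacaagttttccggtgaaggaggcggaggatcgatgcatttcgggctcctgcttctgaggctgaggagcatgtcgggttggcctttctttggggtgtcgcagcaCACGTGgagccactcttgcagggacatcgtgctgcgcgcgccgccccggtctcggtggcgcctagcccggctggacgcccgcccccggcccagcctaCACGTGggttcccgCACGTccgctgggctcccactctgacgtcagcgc
Slc16a1: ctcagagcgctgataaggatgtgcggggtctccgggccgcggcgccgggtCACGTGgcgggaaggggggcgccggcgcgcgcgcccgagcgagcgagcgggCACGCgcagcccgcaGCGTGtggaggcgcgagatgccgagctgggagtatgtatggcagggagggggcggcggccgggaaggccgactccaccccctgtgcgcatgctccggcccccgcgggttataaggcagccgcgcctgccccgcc
Car12: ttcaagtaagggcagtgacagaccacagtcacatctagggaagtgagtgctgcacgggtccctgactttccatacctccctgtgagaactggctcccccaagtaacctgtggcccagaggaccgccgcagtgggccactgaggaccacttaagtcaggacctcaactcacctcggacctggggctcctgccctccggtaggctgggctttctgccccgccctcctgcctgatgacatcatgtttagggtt

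The Car9 window holds 1 match to ACGTG, which begins 18 bases before the start on the opposite strand. The Slc16a3 window holds 2, which begin 27 and 14 bases before the start. The Ldha window holds 5, of which 4 are both strands of 2 CACGTG palindromes, and the Slc16a1 window holds 2 to ACGTG, from 1 palindrome, and 2 to GCGTG. The second Ldha start and Ldhb (chr6:142507958-142508207, minus strand) each hold 1 match to GCGTG and none to ACGTG upstream, and Car12 and Slc4a7 hold neither. Of 32851 promoters in the table, 16.6% hold ACGTG, 28.2% GCGTG and 38.6% either in the same 250 bases, so a match is common and says only that these letters occur there. The gene loci run at chr4:43507026-43513729 for Car9, chr11:120948484-120959000 for Slc16a3, chr7:46842274-46855627 for Ldha, chr3:104638664-104658462 for Slc16a1, chr9:66712296-66766845 for Car12, chr10:79704358-79711979 for Bsg and chr6:142490249-142507957 for Ldhb. The printed starts of Slc16a3, Ldha and Car12 lie inside their loci. These are not positions of the array probes.

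The values are log2 expression after RMA (robust multi-array average), which puts all arrays on one distribution, so a difference of 1 is a 2-fold change, and values of different genes are not compared. Groups were compared with limma, and adjusted p is by Benjamini-Hochberg over all 16573 genes with a threshold of 0.05. Array medians over all probesets lay between 6.66 and 6.77, and pairs of arrays within a group correlated at 0.992 to 0.997 across genes, which are not independent replicates. Vnn1 as a check of the labels had a mean of 5.70 ± 0.13 (SD, n = 4) without the insert, against 11.56 ± 0.16 for VdR and 10.87 ± 0.34 for VR (exact permutation test, two-sided, p = 0.0286 each, the smallest that 4 against 4 allow). Vnn1 itself was called lower in VR than in VdR tumors, at -0.69 (limma, SE 0.14, adjusted p = 0.0292), without overlap. These groups therefore differ in the level of Vnn1 RNA as well as in its catalytic form. The mean of 10 myofibroblast markers ran between 10.41 and 11.06 in R, between 10.72 and 11.01 in VdR and between 10.97 and 11.28 in VR tumors, and none of the 10 was below the filter on low values. The mean of 13 macrophage markers stood at 9.25 to 9.47 in R tumors, below VdR at 10.18 to 10.44 and VR at 10.05 to 10.22. Of these, 12 were called higher in VdR and 10 in VR than in R, and 0 were called between VR and VdR. In VR versus R, 6 of 10 myofibroblast markers (Myl9, Col1a1, Col1a2, Col3a1, Pdgfrb, Thy1) and 2 of 8 endothelial markers (Kdr, Tek) were also called higher. So were 1 of 2 tested neutrophil markers (Csf3r) and 1 of 3 tested erythroid markers (Alas2). Not every marker rose, and Cnn1 (-0.55), Cldn5 (-0.54) and Mertk (-0.27) were lower in VR than in R without being called. Cd8a, 1 of 2 tested T cell markers, was called lower in VR (-0.63) and in VdR (-0.60). Between VR and VdR, Thy1 (0.93), Tek (0.77) and Alas2 (0.55) were called higher in VR. Endothelial markers (8 genes) had means of 9.21 ± 0.29, 9.17 ± 0.15 and 9.55 ± 0.19 (SD, n = 4) for R, VdR and VR, with highest values of 9.50, 9.34 and 9.73, and skeletal muscle markers (8 genes) ran from 6.78 to 9.41, 6.70 to 9.53 and 6.64 to 8.67. Of the markers of cells other than these, 4 of 6 for neutrophils (S100a8, Cxcr2, Mmp8, Retnlg) and Cd3g and Cd3d for T cells were below the filter. Adipocyte, keratinocyte and erythroid markers had list means under 7 in every tumor.

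Car9, Slc16a3, Slc16a1 and Ldha were lower in each VR tumor than in any R tumor, while Bsg, Ldhb and Car12 overlapped. In VdR tumors Slc16a3 was the only member called lower than in R, with every member overlapping R. Between VR and VdR tumors the only call was Slc16a1. Car9, Slc16a3 and Slc16a1 were already known to be lower in VR when the list was drawn up, so for VR versus R their values are a description and are given without p. The other comparisons reuse the R or the VR tumors of that contrast, so for these 3 genes they are not independent of the choice. Whole-tumor RNA cannot tell fewer cells of a type from less RNA per cell. Most macrophage markers were higher in the groups where these genes were lower. In VR tumors so were the myofibroblast, endothelial, neutrophil and erythroid markers called higher above, while Cd8a was lower. Their part in the results was not tested.

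Over the 7 measured members, 4 were called lower and 0 higher in VR than in R, where 7.48% of all genes tested were called lower and 13.6% higher (3 of these 4 were chosen with that difference known, so nothing is read from the count). Groups did not overlap for the same 4, against 10.5% of all genes lower in this way (15.3% higher). The median difference of the members was -0.27 and that of all genes -0.015. In VdR versus R, 1 member was called lower and 0 higher, with 2.81% and 6.58% of all genes called. Non-overlap was seen for 0 members, against 4.5% of all genes lower (9.73% higher), and the medians were -0.21 and 0.0038. In VR versus VdR, 1 member was called lower and 0 higher, with 1.67% and 1.77% of all genes called, and 4 (Car9, Slc16a3, Slc16a1, Ldha) did not overlap, against 6.77% of all genes lower (5.88% higher). The medians were -0.14 and -0.018. Since 3 of these 4 were chosen for low values in the same VR tumors, nothing is read from this count either. VR and VdR were each compared with the same R tumors, so those comparisons are not independent. Of all called genes, 64.6% were higher in VR than in R, which became 29.2% with arrays centred on their median. For VdR versus R the share was 70.1%, which became 41.3% with centring and 55.6% with cyclic loess. The centring used medians over all genes with a named probeset, including those below the filter. With it the median difference of the genes tested went from -0.015 to -0.0997 in VR versus R. In VdR versus R that median went from 0.0038 to -0.068.

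**Figure D1:**
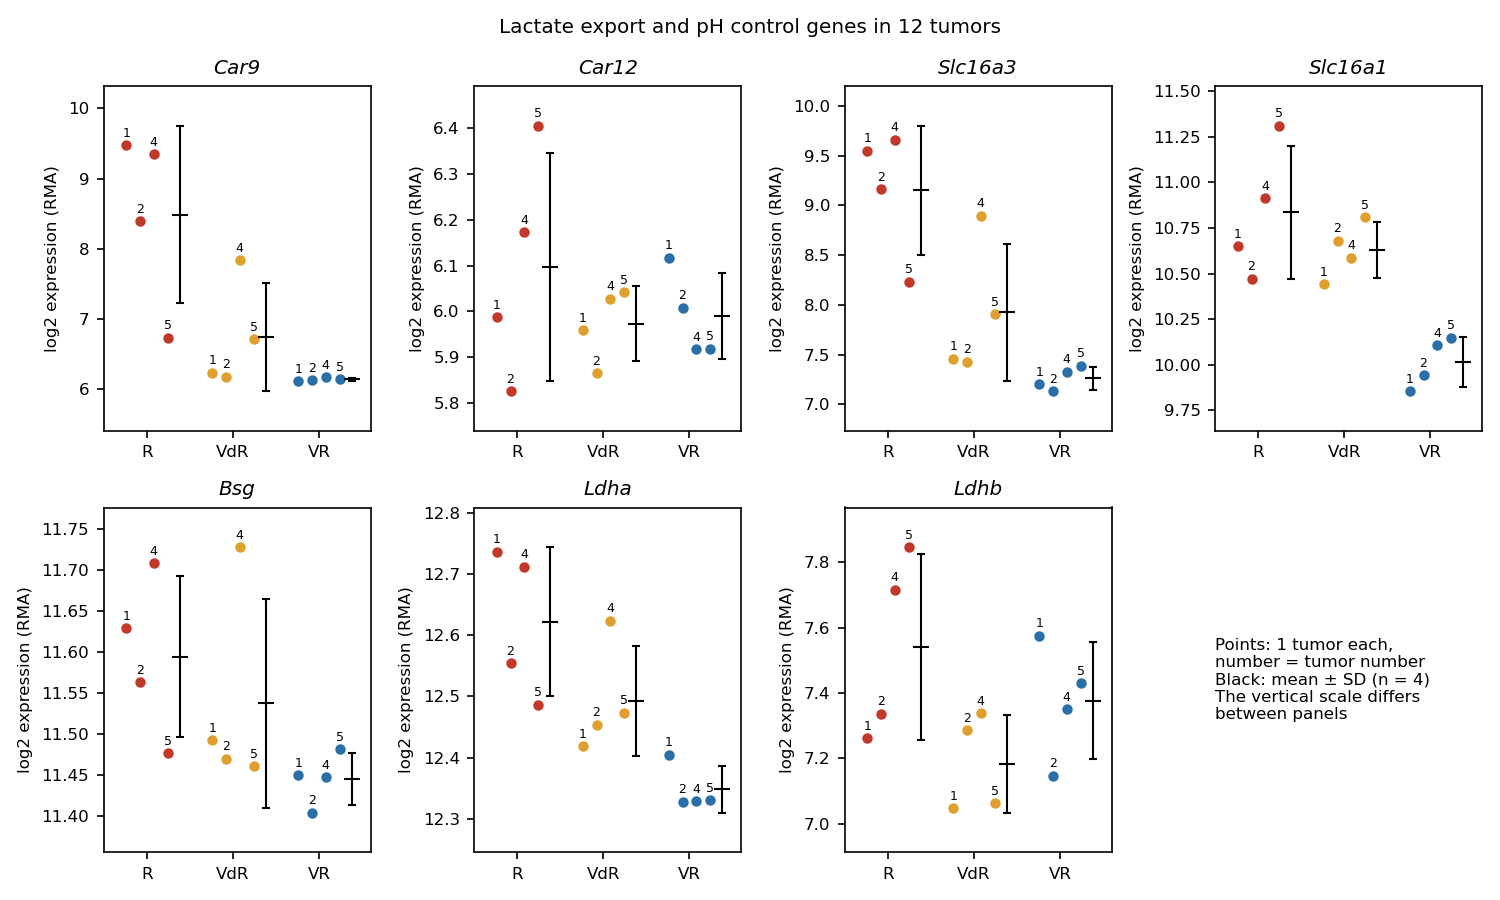
Log2 expression (vertical axis, RMA, a different scale in each panel) of the 7 measured genes in R, VdR and VR tumors. Each point is 1 tumor with its number, and black marks show mean and SD of each group. The 4 VR tumors lie between 6.12 and 6.17 for Car9, while R tumors run from 6.73 to 9.48.

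Among the exporters, Slc16a3 was 9.55, 9.16, 9.66 and 8.23 in R tumors 1, 2, 4 and 5. VdR tumors of the same numbers, which were not treated as pairs, had 7.46, 7.43, 8.90 and 7.91, and VR tumors 7.20, 7.13, 7.33 and 7.39. Every VR tumor lay below every VdR and every R tumor, whereas VdR tumor 4 lay above R tumor 5. VR minus R was -1.89 (SE 0.33, 95% interval -2.62 to -1.16), 3.71-fold lower and the 12th lowest difference of all genes tested. VdR minus R was -1.23 (SE 0.33, -1.95 to -0.50, adjusted p = 0.0381), 2.34-fold lower. This call, which reuses the R tumors behind the choice of the gene, was held in 12 of 24 settings. It was lost without R tumor 1, 2 or 4, VdR tumor 1, 2 or 5 or VR tumor 1 or 4, with adjusted p from 0.0512 to 0.116, while the difference stayed between -1.55 and -1.06 on leaving out any 1 tumor. VR minus VdR was -0.66 (-1.39 to 0.064, adjusted p = 0.311), and without VdR tumor 4 it was -0.34.

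Slc16a1 followed another order. R tumors 1, 2, 4 and 5 had 10.65, 10.47, 10.92 and 11.31, VdR tumors 10.44, 10.68, 10.59 and 10.81, and VR tumors 9.86, 9.94, 10.11 and 10.15. VdR tumors lay within or just under the range of R tumors, and all VR tumors lay below both groups. VR minus R was -0.82 (SE 0.15, -1.15 to -0.50), 1.77-fold lower. VdR minus R was -0.21 (-0.54 to 0.12, adjusted p = 0.460). VR minus VdR was -0.62 (SE 0.15, -0.94 to -0.29, adjusted p = 0.0473), 1.53-fold lower, and was called. The call, which reuses the VR tumors behind the choice of the gene, was held in 12 of 24 settings. It was lost on leaving out any VdR or VR tumor or R tumor 1 or 4, with adjusted p from 0.0600 to 0.118, while the difference stayed between -0.68 and -0.56.

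The distance of Slc16a3 from Slc16a1 on the same array (log2) had a mean of -1.69 ± 0.93 for R, -2.71 ± 0.69 for VdR and -2.75 ± 0.067 for VR (SD, n = 4). The distance itself depends on the probes and only its change can be read. R tumor 5, at -3.08, lay beyond every VR tumor, which ran from -2.81 to -2.66, so the R and VR groups overlapped on this measure.

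Bsg, the chaperone of these transporters, had the narrowest range of the members over the 12 tumors. R tumors 1, 2, 4 and 5 had 11.63, 11.56, 11.71 and 11.48, VdR tumors 11.49, 11.47, 11.73 and 11.46, and VR tumors 11.45, 11.40, 11.45 and 11.48. The highest value was in VdR tumor 4, and R tumor 5 was level with VR tumor 5. VR minus R was -0.15 (-0.30 to 0.0014, adjusted p = 0.147), VdR minus R -0.057 (-0.21 to 0.093, adjusted p = 0.688) and VR minus VdR -0.092 (-0.24 to 0.058, adjusted p = 0.521). With arrays weighted by quality Bsg was called lower in VR than in R at -0.17 (adjusted p = 0.0257), and with arrays centred on their median at -0.23 (adjusted p = 0.0273). Centring lowered the median VR minus R difference of all genes tested, as given above.

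Car9, a carbonic anhydrase with its catalytic side outside the cell, had the widest range of the members. R tumors 1, 2, 4 and 5 had 9.48, 8.39, 9.35 and 6.73, VdR tumors 6.24, 6.18, 7.84 and 6.72, and VR tumors 6.12, 6.13, 6.17 and 6.14. R tumor 5 was level with VdR tumor 5 and below VdR tumor 4, and the VR tumors were the lowest and closest together. The VR minus R difference was -2.35 (SE 0.52, -3.47 to -1.22), 5.09-fold lower and the 2nd lowest difference of all genes tested. The SD fell from 1.26 over R tumors to 0.77 over VdR and 0.021 over VR tumors, and limma uses 1 pooled spread for the groups. The values carry no detection call, so how much of a value near 6.1 is background is not known, and the fold may understate the change.

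VdR minus R for Car9 was -1.74 (SE 0.52, -2.87 to -0.62, adjusted p = 0.0546), which missed the threshold although it was the 7th lowest difference of all genes tested. The comparison reuses the R tumors behind the choice of Car9. It passed in 7 of 24 settings, among them without R tumor 5 at -2.33 (adjusted p = 0.00233) and without VdR tumor 4 at -2.11 (adjusted p = 0.0266). VR minus VdR was -0.60 (-1.73 to 0.52, adjusted p = 0.581) and -0.24 without VdR tumor 4. The groups did not overlap here, but the lowest VdR tumor, at 6.18, lay just above the highest VR tumor, at 6.17.

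Car12 encodes another membrane carbonic anhydrase. R tumors 1, 2, 4 and 5 had 5.99, 5.83, 6.17 and 6.40, VdR tumors 5.96, 5.87, 6.03 and 6.04, and VR tumors 6.12, 6.01, 5.92 and 5.92. All groups overlapped. VR minus R was -0.11 (-0.33 to 0.12, adjusted p = 0.478), VdR minus R -0.12 (-0.35 to 0.10, adjusted p = 0.533) and VR minus VdR 0.017 (-0.21 to 0.24, adjusted p = 0.948). Each interval includes changes in either direction, so equal expression is not shown. Without a detection call, how much of these values is background is not known, and Car12 was below the stricter filter on low values.

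Ldha encodes the muscle-type subunit of lactate dehydrogenase, which is linked to lactate production. Its values were 12.74, 12.55, 12.71 and 12.49 in R tumors 1, 2, 4 and 5, 12.42, 12.45, 12.62 and 12.47 in VdR tumors and 12.40, 12.33, 12.33 and 12.33 in VR tumors. Every VR tumor lay below every VdR and R tumor, and VdR tumor 4 lay among the R tumors. VR minus R was -0.27 (SE 0.067, -0.42 to -0.13, adjusted p = 0.0121), 1.21-fold lower, and was called in 24 of 24 settings. Ldha too was listed with earlier results of these data known, so this p is not independent of the choice. As a log2 difference, -0.27 is small beside the -1.89 of Slc16a3. Ldha lay at 12.33 to 12.74, and whether differences shrink at such high signal was not tested. VdR minus R was -0.13 (-0.27 to 0.015, adjusted p = 0.272) and VR minus VdR -0.14 (-0.29 to 5.24e-04, adjusted p = 0.262).

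Ldhb encodes the heart-type subunit. R tumors 1, 2, 4 and 5 had 7.26, 7.34, 7.72 and 7.85, VdR tumors 7.05, 7.29, 7.34 and 7.06, and VR tumors 7.58, 7.15, 7.35 and 7.43. All groups overlapped, with VdR tumors at the low end. For VR minus R the estimate was -0.16 (-0.45 to 0.13, adjusted p = 0.398), VdR minus R -0.36 (-0.65 to -0.065, adjusted p = 0.125) and VR minus VdR 0.19 (-0.098 to 0.48, adjusted p = 0.481). The other Ldhb probeset gave -0.18, -0.34 and 0.16. The distance of Ldha from Ldhb on the same array had a mean of 5.08 ± 0.35 for R, 5.31 ± 0.11 for VdR and 4.97 ± 0.15 for VR (SD, n = 4), with ranges of 4.64 to 5.47, 5.17 to 5.41 and 4.83 to 5.18 that overlapped.

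**Figure D2:**
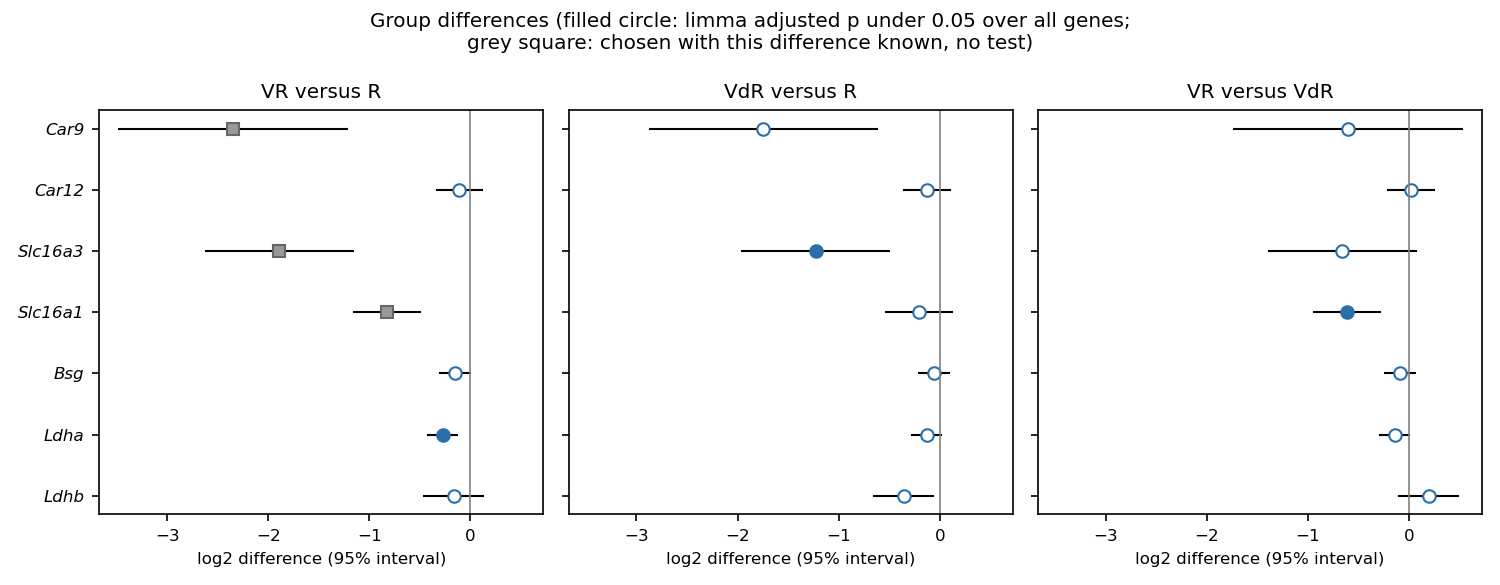
Log2 difference (horizontal axis) of each measured gene in VR versus R, VdR versus R and VR versus VdR tumors, with its 95% interval from limma. Filled circles have an adjusted p under 0.05 over all genes tested, which are Ldha at left, Slc16a3 in the middle and Slc16a1 at right. Grey squares at left are Car9, Slc16a3 and Slc16a1, which were chosen with that difference known and carry no test. All members were listed with earlier results of these data known, and the middle and right panels reuse the same R or VR tumors.

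Tumors within the R and VdR groups differed in step for some members. Over the 12 tumors Car9, Slc16a3, Ldha and Bsg correlated with each other at Pearson r from 0.84 to 0.98, and at 0.84 to 0.95 after each group's mean was taken out. The latter values pool the groups and come mostly from R and VdR tumors, with an SD of Car9 of 1.26, 0.77 and 0.021 over R, VdR and VR. Among VR tumors, tumor 1 had the highest Ldha (12.40) and the lowest Car9 (6.12). Slc16a1 correlated with Slc16a3 at 0.57 over all tumors and at -0.35 within groups. Its correlation with Car9 was 0.44 over all tumors and -0.48 within groups. These within-group values pool the 3 groups and rest largely on R tumor 5, with Slc16a1 at 11.31 and Slc16a3 at 8.23. Among VR tumors both Slc16a1 and Slc16a3 were lower in tumors 1 and 2 than in tumors 4 and 5. Within groups Slc16a1, Car12 and Ldhb correlated with each other at 0.60 to 0.69, also pooled over the groups, and each had its widest spread among R tumors. These are descriptions over 12 tumors that share the group structure and the normalization. R tumor 5 had the lowest R value of Car9, Slc16a3, Ldha and Bsg and the highest value of all 12 tumors for Slc16a1, Car12 and Ldhb. VdR tumor 4 had the highest VdR value of Car9, Slc16a3, Ldha and Bsg.

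**Figure D3:**
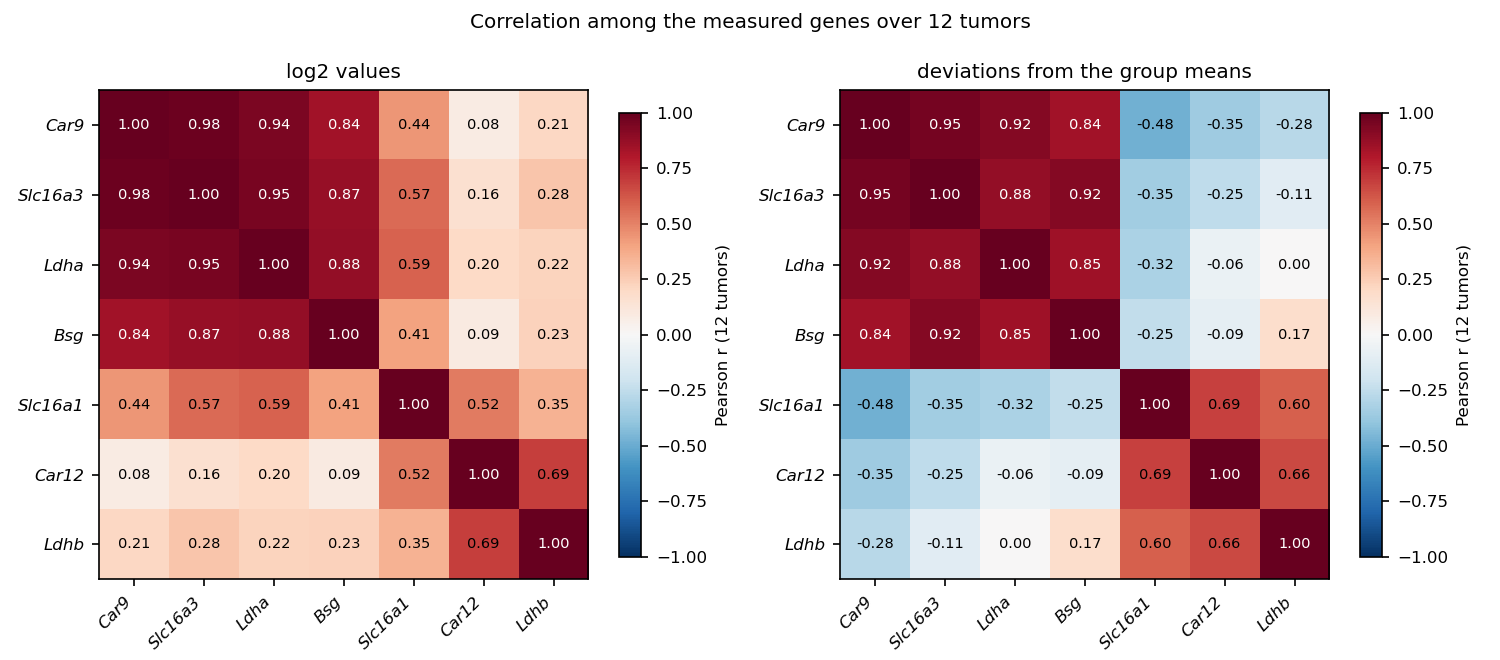
Pearson correlation of the 7 measured genes over 12 tumors, for the log2 values at left and for deviations from the group means at right (color scale from -1 to 1). Car9, Slc16a3, Ldha and Bsg form a block of 0.84 or more in both panels, while Slc16a1 goes from 0.57 to -0.35 against Slc16a3. The right panel pools the groups, with little spread among VR tumors for this block, and its -0.35 rests largely on R tumor 5.

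The 3 genes most like each member over the 12 tumors, of 16572 others, were ranked by Pearson r. Slc16a3 was closest to Bnip3, a mitochondrial receptor for mitophagy, at 0.995, to Pfkl, a phosphofructokinase, at 0.985, and to the glucose transporter gene Slc2a1 at 0.984. For Bnip3 the log2 difference was -1.95 in VR minus R and -1.30 in VdR minus R. Car9 was closest to Mgarp at 0.984, Ndrg1 at 0.979 and Ero1a, an oxidase of the endoplasmic reticulum, at 0.978. Ldha was closest to Ero1a at 0.972, the aldolase gene Aldoa at 0.964 and Pfkl at 0.964, and Bsg to Nyap1 at 0.969, Noxa1 at 0.940 and Aldoa at 0.940.

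The genes most like Slc16a1 were others. They were Prkag1, a regulatory subunit of AMP-activated kinase, at 0.968, Lrp12 at 0.962 and the ETS transcription factor gene Etv4 at 0.959. Etv4 differed by -0.51 in VR minus R, -0.17 in VdR minus R and -0.33 in VR minus VdR. Car12 was closest to Specc1 at 0.873, Slco1a5 at 0.867 and Mgst2 at 0.862, and Ldhb to Osbpl9 at 0.875, Ano6 at 0.855 and Casp2 at 0.854. These neighbours were picked from all genes for their likeness and carry no test.

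The other genes of lactate and pH handling included calls in both directions. Their lists too were drawn up with earlier results of these data known, so their p-values are not independent of the choice. Of 68 tested in 6 lists, 10 were lower and 8 higher in VR than in R, 2 were lower and 6 higher in VdR than in R, and 0 were called between VR and VdR by limma, where 1 was called without the filter and 4 with arrays weighted by quality. This was 14.7% lower and 11.8% higher in VR versus R, beside 7.48% and 13.6% of all genes, and 2.94% lower and 8.82% higher in VdR versus R, beside 2.81% and 6.58%. With the stricter filter on low values 35 of the 68 were tested, with 8 lower and 8 higher in VR than in R. In VdR versus R it gave 2 lower and 7 higher. Slc16a11, Slc9a7 and Asic1, called in VR versus R in the main fit, were below the stricter filter. The split depended on the scaling. With cyclic loess it was 10 lower and 9 higher in VR versus R, and with arrays centred on their median 21 lower and 6 higher in VR versus R and 4 lower and 3 higher in VdR versus R. Centring also lowered the median difference of all genes tested in both comparisons, as given above.

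Of 9 other genes of lactate and pyruvate handling, 2 fell and 1 rose in VR (median -0.10), and 1 rose in VdR (median -0.054). The gene that rose was Slc16a7, which encodes the monocarboxylate transporter MCT2. R tumors had 6.01 to 6.31, VdR tumors 7.04 to 7.65 and VR tumors 7.15 to 7.34, so every tumor with either form of Vnn1 lay above every R tumor. The difference was 1.11 in VR minus R (SE 0.11, adjusted p = 1.02e-04) and 1.19 in VdR minus R (SE 0.11, adjusted p = 1.22e-04), the opposite sign to Slc16a3 and Slc16a1. Without a detection call, how much of the R values is background is not known. Macrophage markers moved the same way over these groups, with the ranges given above, and their part in the result was not tested. Slc16a13 and Slc16a11, less studied members of the transporter family, fell by 0.49 (adjusted p = 0.00797) and 0.19 (adjusted p = 0.0460) on the log2 scale in VR.

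Among 14 other carbonic anhydrase genes, 1 fell in VR (median -0.094) and 1 fell and 1 rose in VdR (median -0.027). Car13 encodes a cytosolic enzyme. R tumors had 10.47 to 10.59, VdR tumors 10.06 to 10.38 and VR tumors 9.96 to 10.23. It fell by 0.44 (adjusted p = 0.00327) in VR and by 0.29 (adjusted p = 0.0494) in VdR. The mitochondrial Car5b rose by 0.44 in VdR (adjusted p = 0.0469). Of 8 bicarbonate transporter genes of the Slc4 family, 1 fell in VR (median -0.12) and 0 changed in VdR (median -0.039). This was Slc4a11, which was 7.88 to 8.64 in R and 7.58 to 7.84 in VR tumors and fell by 0.59 (adjusted p = 0.00675).

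Sodium-proton exchangers move protons out of the cytosol or, for those of organelles, out of the organelle. Of 7 tested, 1 fell and 2 rose in VR (median 0.075) and 1 rose in VdR (median 0.040). For Slc9a2, found at the plasma membrane, R tumors had 8.41 to 9.58, VdR tumors 8.38 to 8.77 and VR tumors 7.51 to 8.37, and it fell by 1.36 in VR (SE 0.24, adjusted p = 0.00237). For the endosomal exchanger Slc9a9, R tumors had 7.81 to 8.79, VdR tumors 9.57 to 9.90 and VR tumors 9.47 to 9.61. It rose by 1.37 (adjusted p = 2.40e-04) in VR and 1.54 (adjusted p = 1.67e-04) in VdR, and Slc9a7 rose by 0.38 (adjusted p = 0.00917) in VR.

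The V-ATPase pumps protons into organelles and, in some cells, out of the cell. Of 24 subunit genes, 4 fell and 3 rose in VR (median 0.018), and 1 fell and 2 rose in VdR (median 0.024). For Atp6v1c1, R tumors had 10.23 to 10.50, VdR tumors 9.89 to 10.17 and VR tumors 9.66 to 9.87, in that order without overlap, and it fell by 0.56 (adjusted p = 5.26e-04) and 0.30 (adjusted p = 0.0265) against R. Atp6v1e1 fell by 0.42 (adjusted p = 0.00421) in VR. Of the called subunits of the membrane sector, Atp6v0a2 was 0.30 higher in VR (adjusted p = 0.00140). Atp6v0e2 was 0.32 higher in VR (adjusted p = 0.0369) and 0.40 in VdR (adjusted p = 0.0252), and Atp6v0a1 was 0.23 higher in VR (adjusted p = 0.0404) and 0.28 in VdR (adjusted p = 0.0332).

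Of 6 proton-sensing receptor and channel genes, 1 fell and 2 rose in VR (median -0.11), and 1 rose in VdR (median -0.084). For Gpr65, a proton-sensing receptor of leukocytes, R tumors had 6.91 to 8.02, VdR tumors 8.22 to 8.66 and VR tumors 8.36 to 8.81. It rose by 1.33 (SE 0.21, adjusted p = 0.00113) in VR and 1.16 (adjusted p = 0.00434) in VdR. Gpr132 rose by 0.67 in VR (adjusted p = 0.0208), and the acid-sensing ion channel gene Asic1 fell by 0.20 (adjusted p = 0.0461). For Slc9a9 and Gpr65 as for Slc16a7, macrophage markers rose over the same groups and their part in the result was not tested.

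**Figure D4:**
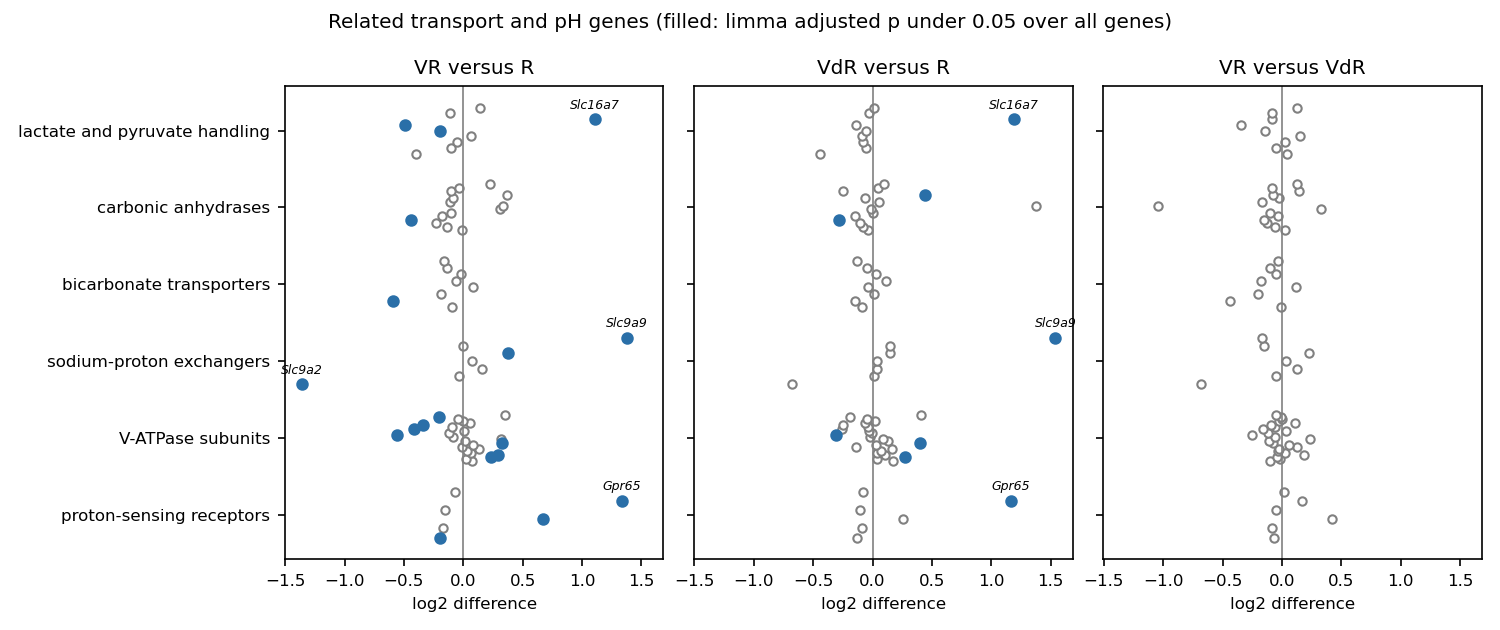
Log2 difference (horizontal axis) of 68 other genes of lactate and pH handling in 6 lists, for VR versus R, VdR versus R and VR versus VdR tumors. Each point is 1 gene, filled where the limma adjusted p over all genes was under 0.05, and named where a called difference exceeded 1 on the log2 scale. Slc16a7, Slc9a9 and Gpr65 lie far to the right in the first and second panels, and the third panel has 0 filled points.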

How the data were processed

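RNA from 12 tumors was hybridised to Affymetrix mouse gene arrays, 1 array per tumor. The authors processed the arrays with RMA in the oligo package (versions not given in the sources used here) and deposited log2 expression values per probeset. The platform annotation gave 21789 of the 35556 probesets 1 gene symbol, 1621 several and 12146 none, and those with 1 symbol were used. A gene was tested where it exceeded the 25th percentile, 5.38, on 4 or more arrays. Limma 3.58.1 in R 4.3.3 (lmFit and eBayes) was fitted to all 12 arrays with 1 coefficient per group, with Benjamini-Hochberg adjustment over all genes. It was tested on simulated data. The number of arrays limits the precision.

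The members and gene lists were chosen with earlier results of these data known. Besides the members, the text names the 3 genes of lowest adjusted p per list and comparison among those called, and the 3 genes with the highest Pearson r with each member. Lists covered lactate and pyruvate handling, carbonic anhydrases, bicarbonate transporters, sodium-proton exchangers, V-ATPase subunits, proton-sensing receptors and markers of 9 cell types. Alternatives were cyclic loess, centring on array medians, array weights, robust or trended moderation, the tumor number as a block, no filter, a stricter filter, the mean of probesets, each tumor left out, a fit of the compared groups alone, and the t-test that the methods name for qRT-PCR. Tumor numbers were not treated as pairs in the main fit, and whether they pair the tumors is not known. Start sites, promoters and loci are from RefSeq, GRCm38.p6, and promoters of chromosome 18 were left out of the shares.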

Additional observations from a re-analysis of the deposited data

Results flagged for a closer look

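Of 75 sets of 4 tumors checked (members and named genes of the lists), 8 had a tumor far from the other 3 by Dixon's criterion, which chance alone gives in about 1 set in 20. Among the members, Bsg was 11.73 in VdR tumor 4 against 11.46 to 11.49 in the others, and Ldha was 12.40 in VR tumor 1 against 12.33 in each of the others. Slc9a2 was 8.41 in R tumor 2, with the others at 9.45 to 9.58, the largest gap of the 8. In VR tumors, Slc16a11 was 6.21 and Slc16a13 8.98 in tumor 2, where the others ran from 6.39 to 6.41 and from 8.83 to 8.85. Atp6v0a2 was 10.49 in VR tumor 5 (others 10.43 to 10.44) and Car5b 9.31 in that tumor (others 9.63 to 9.69). Atp6v1c1 was 9.66 in VR tumor 4 against 9.84 to 9.87.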

How the results depend on the processing

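The count of 4 members lower in VR than in R, 3 of them chosen with that difference known, was 4 on leaving out each tumor in turn and 3 by the methods' t-test. In VdR versus R the count of 1 was 0 without the filter, with robust moderation, with only these groups and by the methods' t-test, 2 with a stricter filter, trended moderation or median centring, 3 with array weights, and 0 to 2 on leaving out a tumor (2 without R 5 or VdR 4, 1 without VR 2 or 5, otherwise 0). With the replicate number as a block it was 2, with Car9 called at -1.74 (adjusted p = 0.0471). Same-numbered tumors correlated at -0.151 to 0.398 in their deviations, with 8 of 12 over 0.1, and 5 of 12 did best with their own number. This does not settle whether the numbers pair the tumors. In VR versus VdR the count of 1 was 0 without the filter and by the methods' t-test, and 0 to 1 on leaving out a tumor (1 only without R 2 or 5). For the other genes of the lists, the 18 calls in VR versus R became 28 with array weights, 9 by the methods' t-test and 12 to 17 on leaving out a tumor, and 27 with median centring. The 8 in VdR versus R became 13 with array weights, 3 by the t-test and 3 to 9 on leaving out a tumor, and 5 with only these groups (3 without R 1, VdR 1 or VdR 2, 5 without R 4 or VdR 4). The 0 in VR versus VdR became 4 with array weights, 1 without the filter or with cyclic loess, 2 with only these groups and 0 to 2 on leaving out a tumor (2 without R 2, 1 without R 5 or VdR 1). Reversals were Ldhb in VR versus R with array weights (0.0038) and Car12 in VR versus VdR without VdR tumor 2 (-0.019) or VR tumor 1 (-0.025; range -0.025 to 0.041 on leaving out a tumor), none of them called. For Vnn1 the difference ranged from 5.04 to 5.28 in VR versus R, from 5.80 to 5.92 in VdR versus R and from -0.81 to -0.57 in VR versus VdR on leaving out a tumor. The causes of these changes were not tested.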
